A study of Homo sapiens with 9 samples.

Results

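The genes described here are 35 targets of the p53 response, followed in PC9 cells after knockdown of the RNA demethylase ALKBH5. They were taken as a fixed list of gene symbols, which was chosen with earlier results of these data known. Each gene was read from the transcript cluster that carries its symbol on a Clariom S expression array. Of the 35 genes, 32 had a cluster, among 17687 genes with a cluster of 1 symbol and 21448 clusters tested. BTG1, BTG2 and FDXR, and the gene of p53 itself, were not analysed here. PC9 is an established human lung adenocarcinoma line, driven by mutant EGFR and known to carry a missense mutation in p53. Its p53 status is background knowledge and was not measured on these arrays. Cells were transfected with siRNA at 15 nM and total RNA was extracted 96 h later. The control siRNA (siControl) and each of the siRNAs against ALKBH5 (siALKBH5#1 and siALKBH5#3) were run on 3 arrays, 9 in all. The labels name biological replicates but not whether these were separate cultures, and the p-values cover only the spread among these samples. All arrays come from 1 line, at 1 dose and 1 time.

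In cells with an intact pathway, DNA damage and other stresses free p53 from MDM2 and MDM4. The protein then binds paired half-sites near its target genes and raises their transcription. Its targets arrest the cell cycle, repair DNA, adjust metabolism, trigger or restrain apoptosis and, through MDM2, PPM1D and CCNG1, switch p53 off again. Most mutant forms found in tumours bind these sites poorly, and many of the targets also answer to other factors, among them the integrated stress response for GDF15 and GADD45A. ALKBH5 removes N6-methyladenosine from RNA.

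Values are linear intensities after robust multi-array averaging (RMA), an arbitrary brightness scale that compares 1 gene across arrays but not different genes with each other. ALKBH5 itself read 2815, 3308 and 2361 in the siControl arrays, 112, 96.7 and 113 with siALKBH5#1, and 56.8, 30.0 and 34.8 with siALKBH5#3. It fell by 4.71 on the log2 scale with siALKBH5#1 (limma adjusted p = 6.49e-07) and by 6.17 with siALKBH5#3 (adjusted p = 4.23e-08). ALKBH5 was also lower with siALKBH5#3 than with siALKBH5#1, by a log2 difference of -1.45 (adjusted p = 0.000487). Median intensity ran from 102.67 to 105.175 over the arrays, and arrays of a group correlated at 0.994 to 0.997 (Pearson's r over clusters), those of different groups at 0.988 to 0.993. The 6 epithelial markers stood at the 90.3rd percentile of brightness or higher in every group. Their summed intensity was 397326 to 403449 in siControl, 367300 to 370256 with siALKBH5#1 and 394263 to 400636 with siALKBH5#3, and CDH1 (log2 change -0.76, adjusted p = 0.0233) and KRT7 (-0.40, adjusted p = 0.048) were called lower with siALKBH5#1. The 4 lung lineage markers, NKX2-1, NAPSA, SFTPB and SFTPC, stood between the 10.3rd and 35.5th percentile, so the labelled tissue of origin was not visible in them. The 4 immune markers measured lay between the 22.9th and 38.5th percentile, the 4 endothelial markers between the 2.19th and 54.9th, and the 5 fibroblast markers between the 24.7th and 57.6th. Summed intensities in siControl, siALKBH5#1 and siALKBH5#3 were 142.71 to 159.57, 106.96 to 141.2 and 111.56 to 129.64 for the immune list. The same sums were 287.17 to 384.68, 198.58 to 230.04 and 235.63 to 264.35 for the endothelial list, and 337.6 to 380.64, 273.1 to 313.1 and 315.39 to 386.35 for the fibroblast list. In these 3 lists, PECAM1 was called lower with both siRNAs (log2 change -0.88 with each, adjusted p = 0.00408 with siALKBH5#1 and 0.00204 with siALKBH5#3). CDH5 (-0.97, adjusted p = 0.0107) and CD14 (-0.58, adjusted p = 0.0328) were called lower with siALKBH5#1. No other marker of these lists was called against siControl. The part of these marker signals in the results was not tested.

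Sequence near the start sites shows which members carry a p53 element there. RefSeq promoter windows (GRCh38.p14, 250 bases before to 50 bases after a start site) were found for 26 of the 32 genes, and none for ASCC3, CMBL, GADD45A, PHLDA3, RRM2B and TP53INP1. The p53 element was searched as a pair of p53 half-sites, 20 bases, with at most 3 bases between them and at most 3 mismatches. The CNNG core had to be intact in both half-sites, and because the half-site reads the same on both strands, 1 search covers both. These limits were set with the matches already seen. The element was found in 7 of the 26 genes (26.9%), against 5.77% of 27305 genes and 4.75% of 35116 windows. A match is a likeness of letters and not a shown binding site. The 7 elements are printed 5′ to 3′ on the strand of the gene, with the paired half-sites and any spacer in capitals and up to 3 flanking bases in lower case, because this element is the sequence by which p53 recognises its targets.
DDB2: tttGAACAAGCCCTGGGCATGTTTggc
MDM2: gctGGTCAAGTTCAGACACGTTCcga
AEN: gccGGGCTTGCCCGGGCATGTGGgag
GDF15: cacAGCCATGCCCGGGCAAGAACtc
RPS27L: gagGGCCTAGAGCAGACAAGCCCgcc
SESN1: tctGGACAAGTCTCCACAAGTCAgaa
PLK2: acaAGACTTGCTTCCCGGCCACGCGCgct

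Positions are those of the capitals. The DDB2 element, at chr11:47214979-47214999 on the plus strand, matched the consensus with 0 mismatches and a spacer of 1 base. With any spacer of at most 3 bases, 7 of the 35116 windows had 0 mismatches (0.0199%). The MDM2 element, at chr12:68808923-68808942 (plus strand), and the AEN element, at chr15:88621306-88621325 (plus strand), had 2 mismatches each. The GDF15 element, at chr19:18386186-18386205 (plus strand), had 3 mismatches and began at base 29 of the transcript. RPS27L (chr15:63157527-63157546, minus strand), SESN1 (chr6:109009018-109009037, minus strand) and PLK2 (chr5:58460196-58460218, minus strand) also had 3 mismatches. The MDM2 element lay before the inner start sites, not the outer ones.

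The 32 genes did not move as 1 block with either siRNA. With siALKBH5#1, 6 rose (DDB2, GADD45A, CMBL, AEN, PERP and GDF15) and 2 fell (ZMAT3 and TP53INP1). With siALKBH5#3, 4 rose (MDM4, GADD45A, AEN and GDF15) and 3 fell (CCNG1, CMBL and TP53INP1). Calls were made by limma on log2 intensities at a Benjamini-Hochberg adjusted p under 0.05 over all 21448 clusters. The 8 calls with siALKBH5#1 were 25% of the members, beside 8.07% of all clusters (4.51% higher and 3.56% lower). The 7 calls with siALKBH5#3 were 21.9%, beside 15.8% of all clusters (8.72% higher and 7.04% lower). The median log2 change of the members was -0.05 and -0.01, against -0.01 and -0.02 over all clusters. So the members were called more often than clusters in general, while their middle stayed where that of all clusters was. The list was chosen with earlier results of these data known, so this excess is not independent evidence. The members were also brighter than most clusters, 25 of them lying above the 50th percentile. Over the 10724 brighter clusters alone, 22.4% were called with siALKBH5#1 and 37.2% with siALKBH5#3, and of the 25 members there 11 and 8 were called. The members' share was thus above that of all clusters past the same filter with siALKBH5#1 and below it with siALKBH5#3. Without siALKBH5#1 replicate 1, the count for siALKBH5#1 fell to 3 of 32, beside 5.31% of all clusters called in the same refit. It fell to 5 without siALKBH5#1 replicate 2, siALKBH5#1 replicate 3, siControl replicate 2 or siControl replicate 3, beside 4.83%, 4.90%, 5.66% and 8.03% of all clusters. From these same arrays, the study's gene set enrichment analysis reported a p53 pathway set as enriched with both siRNAs. That result used another gene list and another measure, so it is not like for like with these counts.

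**Figure D1:**
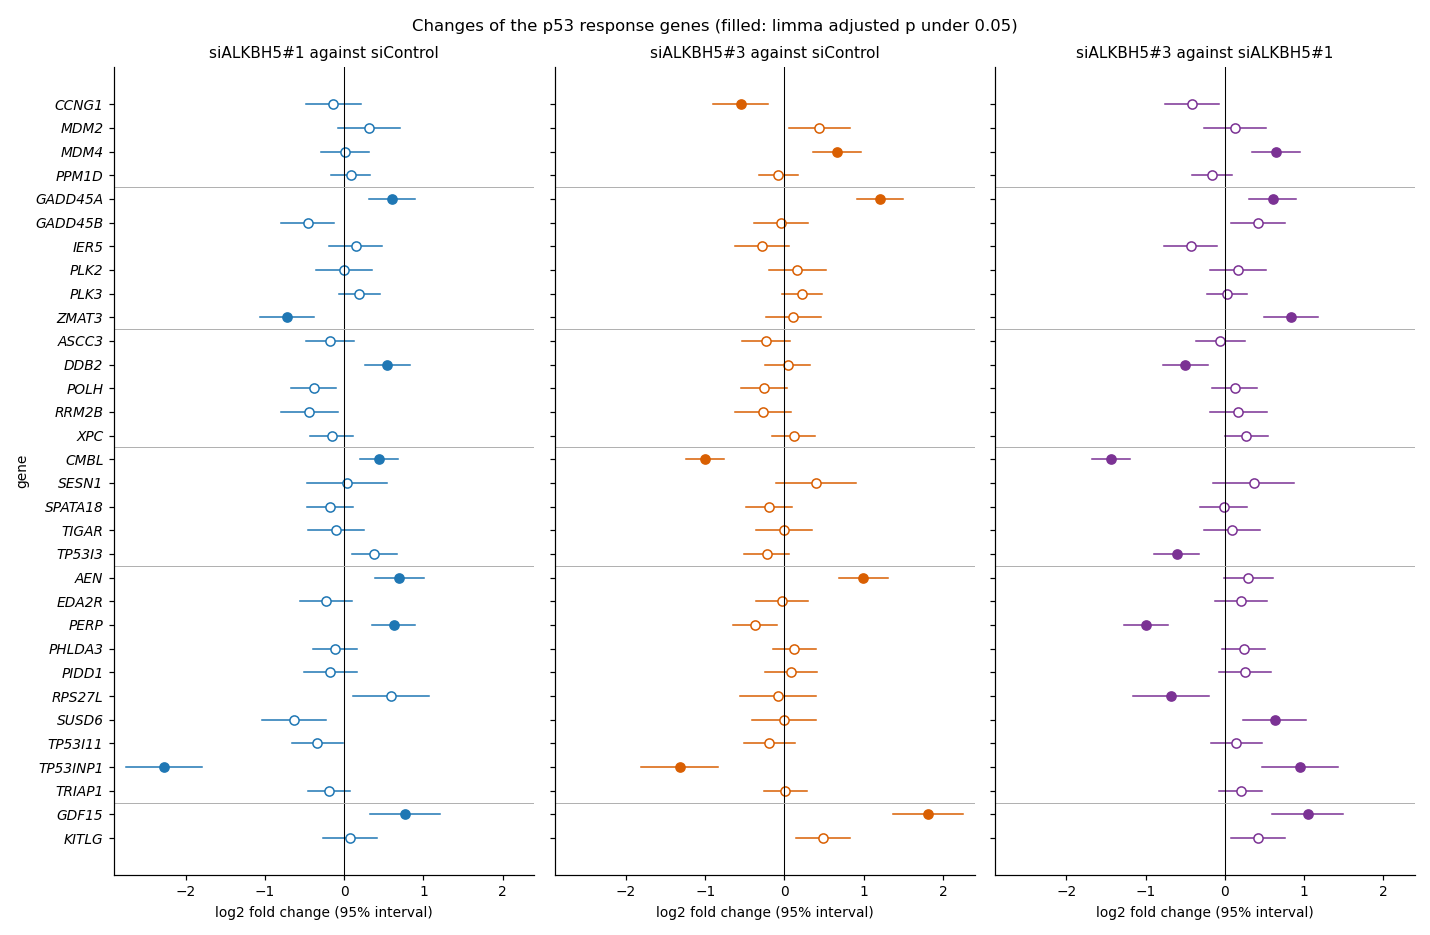
Log2 fold change (x axis) with its 95% interval for each of the 32 genes (y axis, grouped by role from feedback at the top to secreted at the bottom), in the 3 comparisons; filled points passed an adjusted p under 0.05. The 8, 7 and 11 filled points lie on both sides of 0, and TP53INP1 at -2.27 and GDF15 at 1.81 lie farthest out against siControl.

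Both comparisons use the same siControl arrays. GADD45A, AEN and GDF15 were called higher and TP53INP1 lower in both, 4 members of 32, beside 2.29% of all clusters called in both with the same sign. CMBL was called in both with opposite signs, beside 1.06% of all clusters. DDB2, PERP and ZMAT3 were called with siALKBH5#1 alone, and MDM4 and CCNG1 with siALKBH5#3 alone. In all, 13 members were called in at least 1 of the 3 comparisons and 19 in none. The 4 shared calls became 2 (AEN and TP53INP1) without siALKBH5#1 replicate 1, siALKBH5#1 replicate 3 or siControl replicate 2.

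GDF15, a secreted cytokine of the TGF-beta family that rises in many stresses, showed the largest increase of the list. Its intensity was 82.7, 69.7 and 86.2 in siControl, 149, 99.2 and 164 with siALKBH5#1, and 352, 261 and 231 with siALKBH5#3. The 3 groups did not overlap, siControl being lowest and siALKBH5#3 highest. The increase was 1.70-fold (95% interval 1.25 to 2.31, adjusted p = 0.0396) with siALKBH5#1 and 3.50-fold (2.57 to 4.75, adjusted p = 0.000136) with siALKBH5#3. The call with siALKBH5#1 was lost, at an adjusted p of up to 0.139, without siALKBH5#1 replicate 1, siALKBH5#1 replicate 3, siALKBH5#3 replicate 2 or any 1 of the siControl arrays. KITLG, the other secreted member, is the ligand of the receptor KIT. It read 397, 324 and 320.4 in siControl, 307, 442 and 353 with siALKBH5#1, and 441, 539 and 477 with siALKBH5#3. Its log2 change of 0.49 with siALKBH5#3 missed the threshold (adjusted p = 0.0542) and passed it without siALKBH5#1 replicate 1, siALKBH5#1 replicate 2 or siControl replicate 1 (lowest adjusted p = 0.0388). With siALKBH5#1 the log2 change of KITLG was 0.07 (95% interval -0.27 to 0.41).

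**Figure D2:**
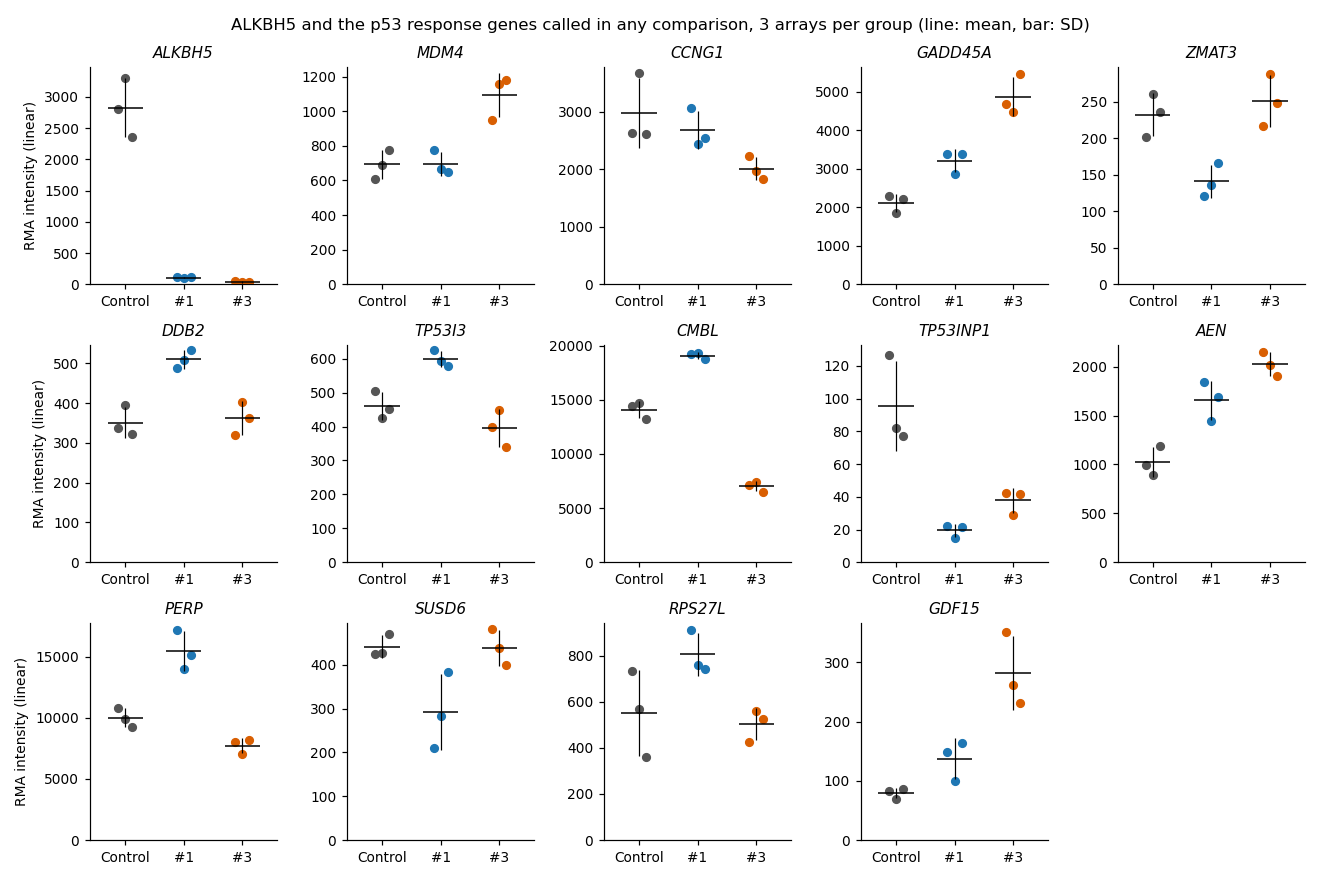
RMA intensity (y axis, linear, from 0) of ALKBH5 and of the 13 members called in any comparison, 1 panel per gene, with 3 arrays per group (points), the group mean (horizontal line) and 1 SD either way (vertical line). GADD45A and GDF15 climb from siControl to siALKBH5#1 to siALKBH5#3 with no overlap, while CMBL and PERP are highest with siALKBH5#1 and lowest with siALKBH5#3.

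Among the genes of cell cycle arrest and stress, GADD45A stood out. It encodes a stress sensor that binds PCNA and p21 and activates stress kinases. GADD45A (chr1:67685201-67688334) read 2279, 1843 and 2207 in siControl, 3381, 2859 and 3381 with siALKBH5#1, and 4685, 4472 and 5446 with siALKBH5#3. No group overlapped another. It rose 1.52-fold (adjusted p = 0.0172) and 2.31-fold (adjusted p = 0.000129). The study picked GADD45A for follow-up from these same arrays, so its direction here is not independent evidence. The study also reported a rise of GADD45A by qPCR. Its call with siALKBH5#1 was lost, at an adjusted p of up to 0.0665, without siALKBH5#1 replicate 1, siALKBH5#1 replicate 3 or siControl replicate 2. Its relative GADD45B went the other way with siALKBH5#1, at 393, 345 and 324 against 496, 397 and 581 in siControl, a log2 change of -0.46 that missed the threshold (adjusted p = 0.0935). It passed without siControl replicate 2 (adjusted p = 0.0442). With siALKBH5#3 GADD45B read 426, 461 and 534, within the siControl range.

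ZMAT3, a zinc finger protein that binds AU-rich RNA and regulates splicing, fell with siALKBH5#1 alone. It read 201, 259.8 and 235 in siControl, 121, 136 and 166 with siALKBH5#1, and 217, 288 and 248 with siALKBH5#3. All siALKBH5#1 arrays lay below all others, while siControl and siALKBH5#3 overlapped. The log2 change was -0.72 (SE 0.16, adjusted p = 0.0158) with siALKBH5#1 and 0.11 (adjusted p = 0.692) with siALKBH5#3. The call was lost without siALKBH5#1 replicate 1, siALKBH5#1 replicate 2 or siControl replicate 2 (highest adjusted p = 0.0633). The polo-like kinase PLK2 was among the brightest members, at 10274 to 15756 over the 9 arrays, with log2 changes of -0.00 and 0.16 and overlapping groups. PLK3 read 80.6 to 84.2 in siControl, 93.6 to 96.6 with siALKBH5#1 and 86.9 to 108 with siALKBH5#3, above every siControl array in both, but did not pass (adjusted p = 0.347 and 0.219). The immediate early gene IER5 had log2 changes of 0.15 and -0.28, neither called.

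The feedback genes gave no call with siALKBH5#1 and a divided picture with siALKBH5#3. MDM4, which holds p53 inactive, read 609, 689.6 and 779 in siControl, 777, 665 and 649 with siALKBH5#1, and 949, 1156 and 1179.8 with siALKBH5#3. Every siALKBH5#3 array was above the other 6. MDM4 rose 1.58-fold with siALKBH5#3 (95% interval 1.28 to 1.95, adjusted p = 0.00716), against 1.01-fold (0.817 to 1.25) with siALKBH5#1. CCNG1, or cyclin G1, which brings a phosphatase to MDM2, fell with siALKBH5#3, from 2626, 3677 and 2621 to 2229, 1978 and 1828. Its siALKBH5#3 arrays lay below all others, including the 3068, 2444 and 2551 of siALKBH5#1. The log2 change was -0.55 (adjusted p = 0.0347), and the call was lost without siALKBH5#3 replicate 2, siALKBH5#3 replicate 3 or siControl replicate 2 (highest adjusted p = 0.116).

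MDM2, the ubiquitin ligase that degrades p53 and one of its best known targets, read 723, 1224 and 1026 in siControl. It read 1306, 1282 and 1040.2 with siALKBH5#1 and 1326, 1357 and 1262 with siALKBH5#3. The siALKBH5#3 arrays were all above siControl, whose first array was low. The log2 change of MDM2 was 0.31 (95% interval -0.07 to 0.70, adjusted p = 0.32) with siALKBH5#1 and 0.44 (0.06 to 0.83, adjusted p = 0.117) with siALKBH5#3. Neither was called, though the second passed without siControl replicate 2 (adjusted p = 0.0397). The phosphatase gene PPM1D changed by 0.08 and -0.08, with 95% intervals within 0.33 of 0 on either side.

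Of the 5 genes of DNA repair and nucleotide supply, DDB2 alone was called, and with siALKBH5#1 alone. DDB2 recognises UV damage in DNA and carries the perfect element printed above. It read 337, 394 and 321 in siControl, 487, 508 and 534 with siALKBH5#1, and 319, 404 and 363 with siALKBH5#3. The siALKBH5#1 arrays lay above the other 6. DDB2 rose 1.46-fold with siALKBH5#1 (95% interval 1.20 to 1.77, adjusted p = 0.0245), against 1.03-fold (0.847 to 1.25) with siALKBH5#3. Its call was lost without any 1 of the siALKBH5#1 arrays, siControl replicate 1 or siControl replicate 3 (highest adjusted p = 0.0842). The other 4 had log2 changes below 0 with siALKBH5#1 that did not pass. RRM2B, the p53-inducible subunit of ribonucleotide reductase, had log2 changes of -0.44 (adjusted p = 0.125) and -0.27. POLH, the translesion polymerase eta, had -0.38 (adjusted p = 0.0956) and -0.26. XPC, which recognises lesions for excision repair, had -0.15 and 0.12, and the helicase gene ASCC3 had -0.18 and -0.24.

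CMBL, a hydrolase of the dienelactone family, gave the sharpest opposition between the siRNAs. Its intensity was 14412, 14663 and 13192 in siControl, 19232, 19274 and 18741 with siALKBH5#1, and 7154, 7440.2 and 6523 with siALKBH5#3. The 3 groups were far apart, with the siControl arrays in the middle. CMBL rose 1.36-fold with siALKBH5#1 (adjusted p = 0.0313) and its log2 change with siALKBH5#3 was -1.00 (adjusted p = 0.000117). The rise with siALKBH5#1 was lost without any 1 of the siALKBH5#1 or siControl arrays (highest adjusted p = 0.0897), and also with quantile normalization, the replicate block or only the arrays of the 2 groups compared (highest adjusted p = 0.0627). TP53I3, a quinone oxidoreductase first described in p53-driven apoptosis, showed the same order of groups at a smaller size. It read 505, 424 and 451 in siControl, 625, 595 and 578 with siALKBH5#1, and 399, 449 and 339 with siALKBH5#3. The siALKBH5#1 arrays were above all others, and neither change from siControl passed (log2 0.38, adjusted p = 0.0974, and -0.22, adjusted p = 0.287). The sestrin gene SESN1 (log2 0.03 and 0.40), the glycolysis regulator TIGAR (-0.10 and -0.01) and SPATA18 (-0.18 and -0.19) were not called. SPATA18 acts in mitochondrial quality control and was dim, at 16.6 to 22.6.

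TP53INP1, a nuclear cofactor of p53 that also takes part in autophagy, showed the largest decrease of the list. It read 127, 82.0 and 77.3 in siControl, 22.1, 15.1 and 21.5 with siALKBH5#1, and 42.4, 28.9 and 41.9 with siALKBH5#3. The groups did not overlap, siControl being highest. It was 4.82-fold lower with siALKBH5#1 (95% interval 3.45 to 6.75, adjusted p = 8.67e-05) and 2.50-fold lower with siALKBH5#3 (1.79 to 3.50, adjusted p = 0.00185). It stood at the 19.8th percentile of brightness with siALKBH5#1 and the 34.95th with siALKBH5#3, about where the lung lineage markers stood. Background light makes up more of such values, so these folds may be too small and do not rank the falls.

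AEN, a nuclease that degrades DNA in apoptosis, rose with both siRNAs. It read 991, 889 and 1193 in siControl, 1841, 1443 and 1687 with siALKBH5#1, and 2153, 2017 and 1903 with siALKBH5#3. Every knockdown array was above every siControl array. The increase was 1.62-fold (95% interval 1.31 to 2.01, adjusted p = 0.011) and 1.99-fold (1.61 to 2.46, adjusted p = 0.000708), and both calls remained without each array in turn. PERP, a membrane protein of desmosomes that can also promote apoptosis, read 10838, 9940.3 and 9281 in siControl. It rose to 17215, 14010.5 and 15164 with siALKBH5#1, and read 8000.1, 7013 and 8190.2 with siALKBH5#3. The siALKBH5#1 arrays were above and the siALKBH5#3 arrays below all of siControl. The log2 change was 0.62 (adjusted p = 0.0108) with siALKBH5#1 and -0.37 (adjusted p = 0.0666, not called) with siALKBH5#3. The second passed with the intensity trend and with dim clusters left out (lowest adjusted p = 0.00644).

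The other genes of death and survival were not called against siControl. RPS27L, a paralogue of a ribosomal protein, read 732, 567 and 360.0 in siControl, the widest spread of any member there (SD 0.52 on the log2 scale). With siALKBH5#1 it read 912, 761 and 741 (adjusted p = 0.124) and with siALKBH5#3 425, 559.6 and 525. Without siControl replicate 1 the first comparison passed (adjusted p = 0.0401). SUSD6, a sushi domain protein, read 425, 427 and 471 in siControl, 211, 283 and 383 with siALKBH5#1, and 481, 438 and 399 with siALKBH5#3. The siALKBH5#1 arrays were lowest but spread widely, and the log2 change of -0.64 missed the threshold (adjusted p = 0.0557), passing without siALKBH5#1 replicate 3 (adjusted p = 0.0119). The AKT inhibitor PHLDA3 had log2 changes of -0.11 and 0.12, the PIDDosome scaffold PIDD1 -0.17 and 0.08, and the apoptosis inhibitor TRIAP1 -0.19 and 0.01. TP53I11 had -0.34 and -0.19, and EDA2R, a receptor for ectodysplasin A2, had -0.23 and -0.03. EDA2R was the dimmest member, at 8.64 to 13.5.

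**Figure D3:**
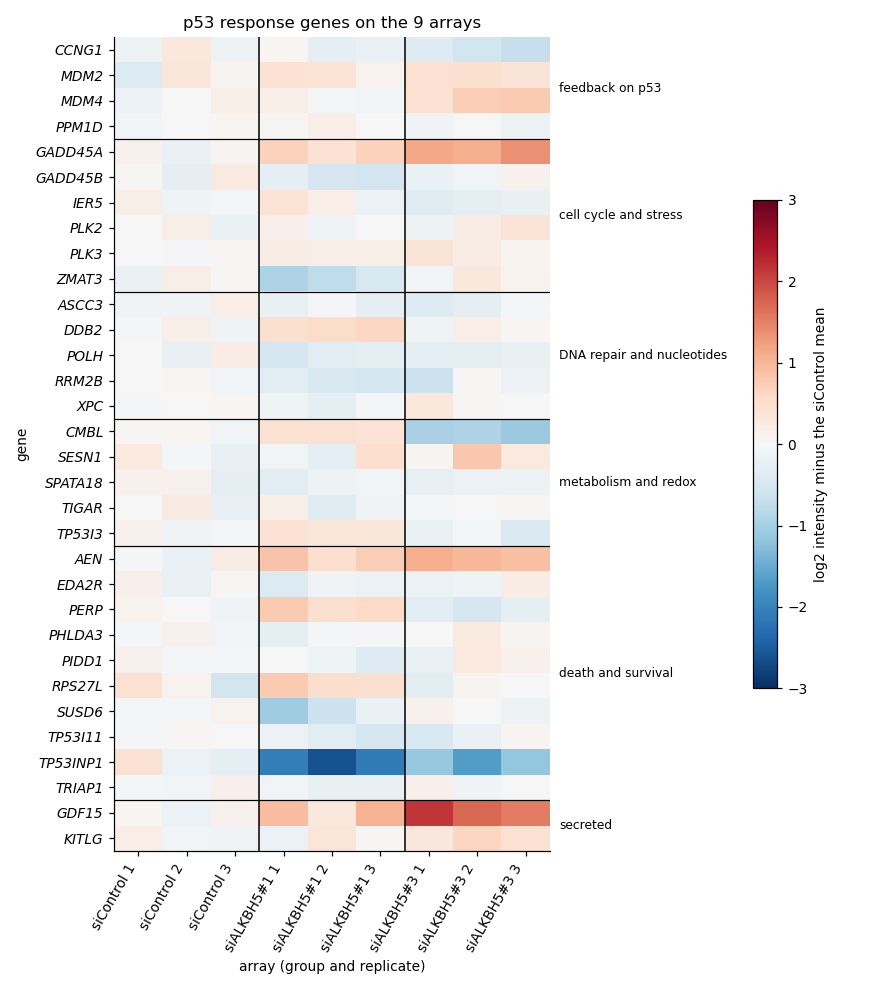
Log2 intensity of each member minus its siControl mean (colour, blue below and red above), with the 32 genes in rows by role and the 9 arrays in columns by group. Rows for GADD45A, AEN and GDF15 are red and that for TP53INP1 is blue in all 6 knockdown arrays, while CMBL is red in the siALKBH5#1 and blue in the siALKBH5#3 arrays.

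The siRNAs were then compared with each other directly, a test that does not use the siControl arrays except for the spread. Of the 32 genes, 11 differed, 34.4%, beside 19.1% of all clusters and 43.6% of the brighter clusters, where 14 of 25 members were called. Higher with siALKBH5#3 were MDM4, GADD45A, ZMAT3, TP53INP1, SUSD6 and GDF15 (9.55% of all clusters were higher). Lower with siALKBH5#3 were DDB2, TP53I3, CMBL, PERP and RPS27L (9.55% were lower). The median log2 difference over the members was 0.17, against -0.00 over all clusters. For CMBL, PERP, TP53I3, RPS27L and ZMAT3 the values against siControl had opposite signs, and TP53I3, SUSD6 and RPS27L had been called in neither comparison with siControl. CMBL differed most, by a log2 difference of -1.44 (95% interval -1.68 to -1.20, adjusted p = 3.91e-06). The PERP difference was -1.00 (adjusted p = 0.000175) and that of TP53I3 -0.61 (adjusted p = 0.00596). GDF15 was 1.04 higher (adjusted p = 0.0032), TP53INP1 0.95 (adjusted p = 0.00973), ZMAT3 0.84 (adjusted p = 0.00257) and MDM4 0.65 (adjusted p = 0.00587). AEN, by contrast, was not called (log2 difference 0.29, 95% interval -0.01 to 0.60, adjusted p = 0.191). The calls of DDB2 (without siALKBH5#1 replicate 3 or siALKBH5#3 replicate 1), SUSD6 (without siALKBH5#1 replicate 1, siALKBH5#1 replicate 2 or any 1 of the siALKBH5#3 arrays) and RPS27L (without any 1 of the knockdown arrays or siControl replicate 2) were lost, at adjusted p of up to 0.0701, 0.117 and 0.165. ALKBH5 was lower with siALKBH5#3, and its part in these differences was not tested.

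The 7 genes with a p53 element near a start site can be set beside the 19 whose windows held none. With siALKBH5#1, 3 of the 7 rose (DDB2, AEN and GDF15, beside 4.51% of all clusters) and none fell, and their median log2 change was 0.54, from -0.00 for PLK2 to 0.76. Among the 19, 1 rose (PERP) and 1 fell (ZMAT3, beside 3.56% of all clusters), with a median of -0.15. The calls of both DDB2 and GDF15 were lost without siALKBH5#1 replicate 1, siALKBH5#1 replicate 3, siControl replicate 1 or siControl replicate 3, which leaves AEN (and, without siControl replicate 1, RPS27L, which then passed). With siALKBH5#3, 2 of the 7 rose (AEN and GDF15, beside 8.72% of all clusters) with a median of 0.40. Of the 19, 1 rose (MDM4) and 1 fell (CCNG1, beside 7.04% of all clusters) with a median of -0.03. Between the siRNAs the medians were close, at 0.16 for the 7 and 0.15 for the 19. Of the 7, 1 was higher and 2 were lower with siALKBH5#3, and of the 19, 3 were higher and 2 lower. Over all clusters, 9.55% were higher and 9.55% lower. These are descriptions of small sets without a test. The split rests on the limit of 3 mismatches, which was set with the matches already seen. GDF15, RPS27L, SESN1 and PLK2 had exactly 3. ZMAT3, KITLG, GADD45B, TRIAP1 and TP53I11 had 4 in their best window, and ZMAT3 was called lower with siALKBH5#1. With a limit of 4 the sets would differ, so the contrast is not evidence that p53 acts on these genes. GADD45A and TP53INP1 have no window here and belong to neither.

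Other lists of the pathway, also chosen with earlier results of these data known, were read from the same fit. Of 30 further p53 targets measured (36 listed), 7 rose and 3 fell with siALKBH5#1 (median log2 change 0.14), and 9 rose and 5 fell with siALKBH5#3 (0.01). These calls were 33.3% and 46.7% of the list, beside 8.07% and 15.8% of all clusters. Over the brighter clusters alone, 22.4% and 37.2% were called, a share not computed for this list. CDKN1A, which encodes the cyclin-dependent kinase inhibitor p21, rose with both (log2 0.63, adjusted p = 0.0102, and 0.80, adjusted p = 0.0012), as did PMAIP1, the BH3 protein NOXA (0.75, adjusted p = 0.00431, and 1.06, adjusted p = 0.000244). The study also chose CDKN1A and PMAIP1 from these arrays, so their direction is not independent evidence. For CDKN1A the study also reported a rise by qPCR, and more p21 protein in PC9 cells, which it described as independent of p53. PMAIP1 is not among the genes whose change by qPCR its text names. SERPINB5, the epithelial serpin maspin, had the largest rise with siALKBH5#1 (1.46, adjusted p = 6.54e-05) and a smaller one with siALKBH5#3 (0.56, adjusted p = 0.016). The receptor kinase gene EPHA2 rose by 0.52 and 0.54 (adjusted p = 0.0449 and 0.0235). APAF1, the core of the apoptosome, fell with both (-0.91, adjusted p = 0.00231, and -1.58, adjusted p = 3.29e-05). ORAI3, which encodes a calcium channel, fell with siALKBH5#3 (-1.27, adjusted p = 0.000108) and had -0.19 with siALKBH5#1. Between the siRNAs, 3 of the 30 were higher and 8 lower with siALKBH5#3 (median -0.23). These were 36.7% of the list, beside 19.1% of all clusters. Among the brighter clusters, refitted alone, 43.6% were called, a share not computed for this list. The widest differences were for ORAI3 (-1.08, adjusted p = 0.000187) and the death receptor genes TNFRSF10B (1.08, adjusted p = 0.000393) and TNFRSF10D (-1.08, adjusted p = 0.000262).

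Of 19 genes of the p53 family and its upstream regulators measured (23 listed), 1 fell with siALKBH5#1, TP53BP2, a cofactor of p53 in apoptosis (-0.95, adjusted p = 0.000533). That was 5.26% of the list, beside 8.07% of all clusters. With siALKBH5#3, 2 rose and 4 fell, 31.6% of the list beside 15.8% of all clusters. Among the brighter clusters, refitted alone, 37.2% were called, a share not computed for this list. TP73, the p53 relative that shares its sites, rose by 0.89 (adjusted p = 0.00857), with 0.49 (adjusted p = 0.148, not called) for siALKBH5#1. It was dim, at the 28.9th percentile of brightness in siControl and the 41.4th with siALKBH5#3, so the size of this rise is uncertain. The part of TP73 in the changes of the members was not tested. The acetyltransferase gene CREBBP rose by 1.15 (adjusted p = 0.000187). CDKN2A, whose alternative reading frame product restrains MDM2, fell by 1.61 on the log2 scale (adjusted p = 5.35e-05), and the damage kinase gene ATR fell by 1.01 (adjusted p = 0.0283). CDKN2A was read as 1 cluster, which does not tell its reading frames apart. Between the siRNAs, 2 of the 19 were higher and 3 lower with siALKBH5#3 (median -0.07), 26.3% of the list beside 19.1% of all clusters. Among them were CDKN2A (-1.83), CREBBP (1.23) and TP53BP2 (1.06).

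Genes that p21 represses through the DREAM complex were read as a further list, and the part of p21 in their changes was not tested. Of 24 measured (25 listed), 0 were called by limma with siALKBH5#1, beside 8.07% of all clusters. Of the 24, 2 had an unadjusted p under 0.05, limma with an intensity trend called 1 and the methods' t-test 0. Their median log2 change was -0.03. With siALKBH5#3, 5 fell and 2 rose, with a median of -0.19. These were 29.2% of the list, beside 15.8% of all clusters. Of the 24, 14 had an unadjusted p under 0.05, beside 6313 of all 21448 clusters. Limma with an intensity trend called 14, beside 4261 of all clusters, and the methods' t-test 3, beside 1414. Among the brighter clusters, refitted alone, 37.2% were called, a share not computed for this list. CENPE, a kinetochore motor, and TTK, a spindle checkpoint kinase, both fell by 0.67 on the log2 scale (adjusted p = 0.00249 and 0.00526). CDC25A, a phosphatase that drives entry into S phase, rose by 1.31 (adjusted p = 6.23e-05). Between the siRNAs, 3 were higher and 3 lower with siALKBH5#3 (median -0.20), 25% of the list beside 19.1% of all clusters. There limma with an intensity trend called 12 of the 24, beside 4929 of all clusters, and the methods' t-test 2, beside 2028. CDC25A differed most (1.12, adjusted p = 9.79e-05).

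**Figure D4:**
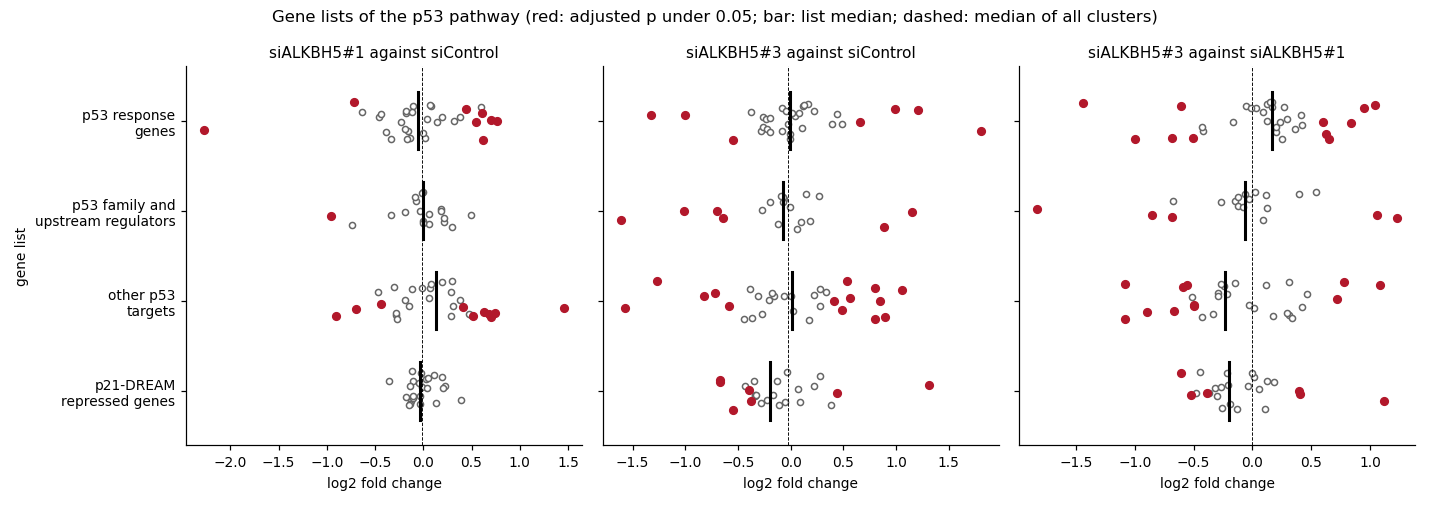
Log2 fold change (x axis) of the genes of 4 lists (y axis; points spread vertically only for legibility) in the 3 comparisons; red points passed an adjusted p under 0.05, thick bars are list medians and the dashed line is the median of all clusters. Against siControl the medians stay between -0.19 and 0.14 in every list while single genes reach from -2.27 to 1.81.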

How the data were processed

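RNA of 9 samples was hybridised to Clariom S arrays (1 colour, biotin). The deposited values are linear intensities, made by the authors with RMA in Affymetrix Expression Console, with build hg38 per the submitters' notes, whose tool versions are not given in the sources used here. The 2903 control entries of 24351 were left out. Log2 was taken without a pseudocount. Symbols came from the platform's probe-gene table: 17709 clusters had 1 symbol, 0 several and 3739 none. Each gene was represented by its brightest cluster, and each member had 1 cluster. limma 3.58.1 (R 4.3.3) fitted 1 mean per group to all 9 arrays (6 residual and 5.79 prior degrees of freedom), with eBayes and Benjamini-Hochberg adjustment over 21448 clusters. The fit was tested on simulated data. All 35 members are named, and genes of the other lists where called in both comparisons or among a list's largest changes. The members and lists were chosen with earlier results of these data known. The alternatives were an intensity trend with a robust prior, quantile normalization, median centring, leaving out dim clusters (mean under the median), a replicate block, 2 groups only, the methods' t-test and leaving out each array. Array number limits the precision.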

Additional observations from a re-analysis of the deposited data

Results flagged for a closer look

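The members below are listed because their levels differed between the siRNAs by the direct limma test, although both siRNAs target ALKBH5. The log2 difference, siALKBH5#3 minus siALKBH5#1, was 0.65 for MDM4, 0.60 for GADD45A, 0.84 for ZMAT3, 0.95 for TP53INP1, 0.63 for SUSD6 and 1.04 for GDF15. It was -0.50 for DDB2, -0.61 for TP53I3, -1.44 for CMBL, -1.00 for PERP and -0.68 for RPS27L. In GADD45A and GDF15 the difference adds to a rise with both siRNAs. TP53INP1 was called lower with both, at intensities dim enough that the size of the difference is uncertain. In CMBL, PERP, TP53I3, RPS27L and ZMAT3 the values against siControl have opposite signs. No group had the 4 arrays needed to look for single arrays far from the others.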

How the results depend on the processing

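No member called in a comparison changed its sign under any alternative run. The 26 calls of members, repeated under each alternative that could measure them, kept their side of the threshold in 385 cases and lost it in 80. The 70 member comparisons not called, repeated likewise in 1242 cases, became calls in 28. The intensity trend with a robust prior added SUSD6 (siALKBH5#1), PERP and KITLG (siALKBH5#3), and CCNG1 and IER5 (between the siRNAs), for 9, 9 and 13 calls beside 12.1%, 19.9% and 23.0% of all clusters. Leaving out dim clusters added the same 5 with GADD45B, POLH and TP53I3 for siALKBH5#1 and GADD45B and KITLG between the siRNAs. Quantile normalization added SUSD6 (siALKBH5#1), and the use of 2 groups only added KITLG (siALKBH5#3) and GADD45B (between the siRNAs). The study's own kind of test was stricter. At p under 0.01 and a fold over 1.5, the methods' t-test called 3 members with siALKBH5#1, 5 with siALKBH5#3, 6 between the siRNAs and 1 in both (GADD45A), where it called 3.28%, 6.59% and 9.46% of all clusters in the 3 comparisons. After Benjamini-Hochberg adjustment it called 0, 4, 2 and 0, beside 1.51%, 6.07% and 12.5% of all clusters, and the log2 difference of ALKBH5 between the siRNAs, -1.45, then had an adjusted p of 0.0543. Leaving out each array in turn gave 3 to 8 calls with siALKBH5#1, 6 to 8 with siALKBH5#3, 8 to 11 between the siRNAs and 2 to 4 in both. The shares of all clusters called in these refits were 4.83% to 8.03%, 10.8% to 15.1% and 14.5% to 19.97%. Calls that remained without every array were 3 of 8 (TP53INP1, AEN and PERP), 6 of 7 (all but CCNG1) and 8 of 11 (all but DDB2, SUSD6 and RPS27L). The replicate block gave 7, 7 and 10 calls (6.67%, 14.0% and 17.6% of all clusters) and 4 in both, losing CMBL with siALKBH5#1 and RPS27L between the siRNAs. Arrays of the same replicate number showed no shared shift. Correlations of deviations from the group means were -0.147 to 0.123 for the same number and -0.176 to 0.172 for different numbers. Whether arrays of the same number were made together is not given in the labels, and these correlations cannot tell. RPS27L was also lost with median centring. With 2 groups only, GDF15 (siALKBH5#1), CCNG1 (siALKBH5#3) and SUSD6 (between the siRNAs) were lost as well. The causes were not tested. Dim members are limited by background light: 7 of the 32 lay under the 50th percentile of brightness.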
